A study of Mus musculus with 18 samples.

Results

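The D-type cyclins Ccnd1, Ccnd2 and Ccnd3 were followed in mouse embryonic stem cells (ESCs) with and without Zeb2, a transcription factor of the zinc finger E-box binding family, as the cells left the pluripotent ground state and were directed towards a neural fate. The genes were chosen by their symbols in a table of TPM, read counts divided by a length set for each gene and by the total of the library, and all 3 of them were among the 10965 genes of that table. The family was proposed with earlier results of these data known, and the table holds genes that passed a filter of the authors on level and variability, so the members' values below are a description and carry no test. Control cells (Ctrl) were Zeb2 fl/fl and the other cells were Zeb2 -/- (KO), both of strain CD1. There were 3 libraries for each genotype and day and 18 in all, described by the authors as independent experiments, and which of the derived Ctrl and KO lines they came from is not given in the sources used here. At d0 both genotypes grew without feeder cells in N2B27 with 1000 U/ml LIF and the inhibitors PD0325901 (of MEK, 0.4 µM by the sample labels) and CHIR99021 (of GSK3, 1 µM), the combination called 2i + LIF. They then formed embryoid bodies in medium with 15% serum until d4, and in N2B27 with 500 nM retinoic acid until d6.

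D-type cyclins are the regulatory partners of the kinases CDK4 and CDK6 and link outside signals to the cell cycle. The active kinase phosphorylates retinoblastoma protein, which releases E2F transcription factors and lets a cell pass from G1 into S phase. The kinases are held back by inhibitors of the INK4 family, and inhibitors of the CIP/KIP family bind cyclin-kinase complexes. The 3 cyclins differ mainly in where and when they are transcribed: Ccnd1 is known as a target of growth factor and ERK signals, and Ccnd2 as a cyclin of neural progenitors and other dividing precursors. Mouse ESCs have a short G1 phase and low cyclin D activity, and the D-type cyclins increase as the cells differentiate.

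Ccnd1 (ENSMUSG00000070348) lies on chromosome 7, 144929931 to 144939925 of GRCm38, minus strand. Ccnd2 (ENSMUSG00000000184) lies on chromosome 6, 127125162 to 127152193, minus strand, and Ccnd3 (ENSMUSG00000034165) on chromosome 17, 47505051 to 47599691, plus strand. Their coding regions translate to 295, 289 and 292 codons. Over aligned residues, Ccnd1 and Ccnd2 are 66.1% identical, Ccnd2 and Ccnd3 63.5%, and Ccnd1 and Ccnd3 52.6%. The first 60 coding bases are shown because they hold the LxCxE motif, by which these cyclins bind retinoblastoma protein, and because the last line shows how close a pseudogene is to Ccnd3. They are read 5′ to 3′ on the coding strand from GENCODE M21 transcripts, in the first coding exon at chr7:144939634-144939693, chr6:127150714-127150773 and chr17:47593655-47593714. Capitals mark the 5 codons of the motif, which starts at codon 5 in Ccnd1 and at codon 3 in Ccnd2 and Ccnd3. In the line of Ccnd3-ps, an intronless processed pseudogene (ENSMUSG00000080708) on the minus strand at chr4:139346121-139346180, capitals mark the 2 bases that differ from Ccnd3.
Ccnd1: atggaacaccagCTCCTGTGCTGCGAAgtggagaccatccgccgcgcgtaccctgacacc
Ccnd2: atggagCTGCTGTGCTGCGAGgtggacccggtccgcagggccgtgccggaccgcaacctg
Ccnd3: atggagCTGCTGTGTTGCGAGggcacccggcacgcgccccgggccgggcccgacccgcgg
Ccnd3-ps: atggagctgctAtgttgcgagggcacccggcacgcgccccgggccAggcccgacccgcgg

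The reads were single and 36 bp long, so stretches of that length that occur in more than 1 gene limit what the table can tell apart. Of the 36-base words of the main Ccnd3 transcript, 12.6% also occur in Ccnd3-ps, and 29.3% of the words of Ccnd3-ps occur in Ccnd3, so the level of Ccnd3 is uncertain to that extent. With Bysl included, 29.2% of the words of Ccnd3 occur elsewhere, and of the words of the main Ccnd1 transcript 27.9% occur in Oraov1. The 3′ ends of Ccnd1 and Ccnd3 overlap genes read from the other strand, Oraov1 by 1771 bases and Bysl by 361 bases, and whether strand was used in the counting is not given. With Gm43126, an antisense gene, the main Ccnd2 transcript shares 5.39% of its words, the lowest share of the 3. No 36-base word was found in both of any pair of the 3 cyclins.

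Reads recovered from the TPM, whose total on the table's genes was 9622622 to 15617675 per library, gave the depth behind each value. They also gave the gene length behind each TPM, on a scale set by 1340 genes with a single annotated exon. It was 4210 bases for Ccnd1, 12674 for Ccnd2 and 16796 for Ccnd3, whereas the main transcripts have 3740, 6330 and 1999 bases and the merged exons of all annotated transcripts 4709, 9409 and 8775. A comparison of 1 gene between libraries does not rest on its length, but levels of different genes, their sums and their ranks in TPM do, and for Ccnd3 the length was 8.40 times that of the main transcript. For Zeb2, the targeted gene, no KO library reached the lowest Ctrl library of its day: at d0 the means were 0.129 TPM in Ctrl and 0.0216 TPM in KO, at d4 1.36 and 0.164 TPM, and at d6 7.66 and 0.681 TPM. The KO libraries at d0 held 1 to 3 Zeb2 reads. All 7 of 7 pluripotency markers were measured. At d0 they summed to 4949 to 5152 TPM in Ctrl and 4737 to 5089 TPM in KO. At d6 their sums were 810 to 929 and 1569 to 1830 TPM. The higher KO sum at d6 lay mostly in Pou5f1, with means of 101 TPM in Ctrl and 652 TPM in KO, and Nanog, with 112 and 300 TPM. Esrrb and Zfp42 also had higher means in KO on that day. Sox2 had 538 TPM in both genotypes, and Klf4 and Tbx3 had lower means in KO, so the list did not differ as a whole. The 7 neural markers summed to 467 to 516 TPM in Ctrl and 91.9 to 111 TPM in KO at d6. At d0 they summed to 189 to 231 and 104 to 118 TPM, and at d4 to 274 to 325 and 211 to 225 TPM. Most of the d0 sum was Tubb3, with a mean of 168 TPM in Ctrl and 78.0 TPM in KO. In KO at d6 Tubb3 was lower than at d0, at 37.2 TPM. Nes and Sox1 were higher, at 50.1 and 10.9 TPM after 24.0 and 5.53 TPM. KO cells at d6 thus carried the label of neural differentiation with a lower mean level than Ctrl of each of the 7 neural markers. The D-type cyclin values below are those of whole cultures. In these, fewer cells of a type and less mRNA per cell cannot be told apart.

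In ground state ESCs of both genotypes Ccnd1 and Ccnd3 were expressed and Ccnd2 was below 1 TPM. By d4 the genotypes had parted. In Ctrl, Ccnd2 was far higher at d4 and d6 than at d0, while in KO it stayed low and Ccnd1 was higher than in any Ctrl library. Ccnd3 was lower at each later day in both genotypes, and lower in KO than in Ctrl.

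Ccnd2 showed the largest differences of the family. In Ctrl at d0 its 3 libraries had 0.905, 0.426 and 0.700 TPM, from 47, 18 and 27 reads. At d4 the Ctrl libraries had 147, 152 and 216 TPM, and at d6 they had 192, 204 and 203 TPM. All Ctrl libraries at d4 and d6 were thus far above those at d0, and the libraries of d4 and d6 overlapped. At d0 the mean was 0.677 ± 0.240 TPM (SD, n = 3 here and for all means below), and it was 172 ± 38.2 TPM on d4 and 199 ± 6.87 TPM on d6. By its mean deposited TPM in Ctrl, Ccnd2 was number 10568 of the 10965 genes at d0, number 1106 at d4 and number 823 at d6.

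In KO cells Ccnd2 was also higher after d0 but stayed at a small part of the Ctrl level. The KO libraries had 0.164, 0.188 and 0.278 TPM at d0, from 6, 9 and 9 reads, and every KO library lay below every Ctrl library already on that day. At d4 they had 10.6, 17.1 and 12.3 TPM, from 397 to 766 reads, against 7226 to 10396 reads in Ctrl. At d6 they had 10.2, 5.15 and 3.95 TPM, the first of them close to the lowest library of d4. The mean of 13.3 ± 3.39 TPM at d4 was 7.77% of the Ctrl mean, and the mean of 6.43 ± 3.31 TPM at d6 was 3.22% of it. Ccnd2 was number 9159 of the 10965 genes by its mean deposited TPM in KO at d6, against number 823 in Ctrl.

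On the scale of log2(TPM + 1), KO minus Ctrl for Ccnd2 was -0.46 on d0, -3.59 on d4 and -4.84 on d6, each with an SE of 0.24. The d0 value rests on few reads and on the pseudocount, and was -1.29 with a pseudocount of 0.1 and -1.72 with limma's voom on the recovered reads. The median over the whole table was itself -0.07 on d0, -0.16 on d4 and -0.14 on d6, and relative to it Ccnd2 differed by -0.39, -3.43 and -4.70. The change from d0 to d4 was 6.67 in Ctrl and 3.54 in KO, beside all-gene medians of 0.26 and 0.15. From d4 to d6 Ccnd2 changed by 0.24 (SE 0.24) in Ctrl, no more than its error, and by -1.01 (SE 0.24) in KO.

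Ccnd1 differed between KO and Ctrl in the opposite direction at d4 and d6. In Ctrl its libraries had 94.0, 80.3 and 77.9 TPM at d0, then 42.1, 55.2 and 55.7 TPM at d4, and 68.5, 74.2 and 66.4 TPM at d6. The libraries of the 3 days did not overlap, with the lowest values at d4. In KO its libraries had 74.5, 73.8 and 56.1 TPM at d0, then 185, 244 and 218 TPM at d4, and 157, 136 and 164 TPM at d6. Every KO library at d4 and d6 was above every Ctrl library of any day, whereas at d0 the KO libraries were just below those of Ctrl. The means at d4 were 51.0 ± 7.72 TPM in Ctrl and 216 ± 29.4 TPM in KO, a ratio of 4.23. At d6 they were 69.7 ± 4.03 and 152 ± 14.7 TPM, a ratio of 2.19.

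As log2 differences, KO minus Ctrl for Ccnd1 was -0.31 on d0, 2.06 on d4 and 1.11 on d6 (SE 0.13), or -0.24, 2.23 and 1.25 relative to the median of all genes. Of all genes, 99.7% had a lower difference at d4. The change from d0 to d4 was -0.72 in Ctrl and 1.65 in KO, and from d4 to d6 it was 0.45 in Ctrl and -0.49 in KO, each with an SE of 0.13. In order of mean level, Ccnd1 went from KO d4 over KO d6, Ctrl d0, Ctrl d6 and KO d0 down to Ctrl d4. The libraries of Ctrl d6 and KO d0 overlapped, with means of 69.7 ± 4.03 and 68.1 ± 10.4 TPM, and no other neighbours in that order did.

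Ccnd3 was highest in ground state cells and went down in both genotypes. In Ctrl its libraries had 76.0, 71.9 and 81.7 TPM at d0, then 45.6, 49.1 and 39.6 TPM at d4, and 27.3, 30.8 and 27.9 TPM at d6. In KO they had 70.3, 68.5 and 69.0 TPM at d0, then 20.2, 21.7 and 23.2 TPM at d4, and 18.4, 19.4 and 17.5 TPM at d6. On log2(TPM + 1) the change was -0.76 from d0 to d4 and -0.62 from d4 to d6 in Ctrl, and -1.63 and -0.22 in KO (SE 0.082), so that most of the difference between days lay before d4 in KO and was spread over both intervals in Ctrl. All 6 groups stood in the order Ctrl d0, KO d0, Ctrl d4, Ctrl d6, KO d4, KO d6 with no overlap between neighbours, though the d0 groups were separated only by 71.9 against 70.3 TPM. The means were 76.5 ± 4.94 and 69.3 ± 0.941 TPM at d0, 44.7 ± 4.79 and 21.7 ± 1.47 TPM at d4, and 28.7 ± 1.88 and 18.4 ± 0.925 TPM at d6, Ctrl before KO.

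KO minus Ctrl for Ccnd3 was -0.14 (SE 0.082) on d0, less than 2 of its errors, and -1.01 on d4 and -0.61 on d6 with the same SE. Relative to the median of all genes these were -0.07, -0.85 and -0.47. The pseudogene Ccnd3-ps, with which Ccnd3 shares sequence, differed in the same way, by -0.20 on d0, -1.04 on d4 and -0.63 on d6. It had 0.107 to 0.128 reads per Ccnd3 read at d0 and 0.104 to 0.138 at d4 and d6, and how far reads of either gene were assigned to the other was not tested.

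**Figure D1:**
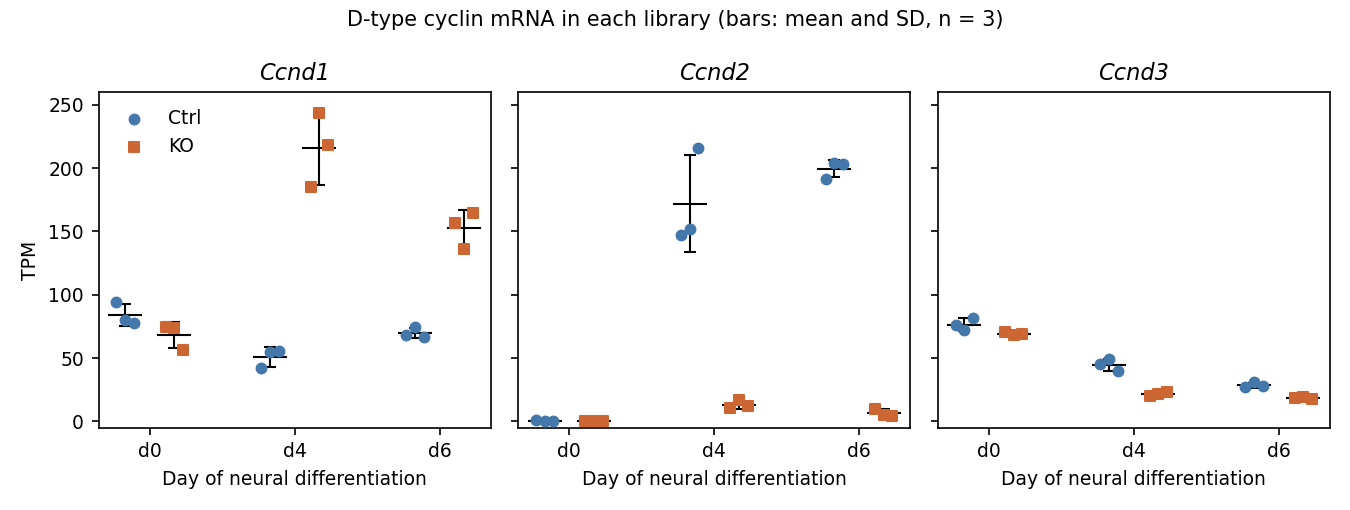
TPM of Ccnd1, Ccnd2 and Ccnd3 (y axis, linear) in each of the 18 libraries by day (x axis), with Ctrl as circles, KO as squares, and the mean and SD of each group of 3 in black. At d4 and d6 the KO libraries of Ccnd1 sit between 136 and 244 TPM, above Ctrl, and those of Ccnd2 between 3.95 and 17.1 TPM, below the Ctrl libraries at 147 to 216 TPM.

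With 3 members described, the KO and Ctrl libraries did not overlap for 3 of 3 on each of the days. At d0 the same held for 51.5% of the 10965 genes, at d4 for 65.7% and at d6 for 63.7%.

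**Figure D2:**
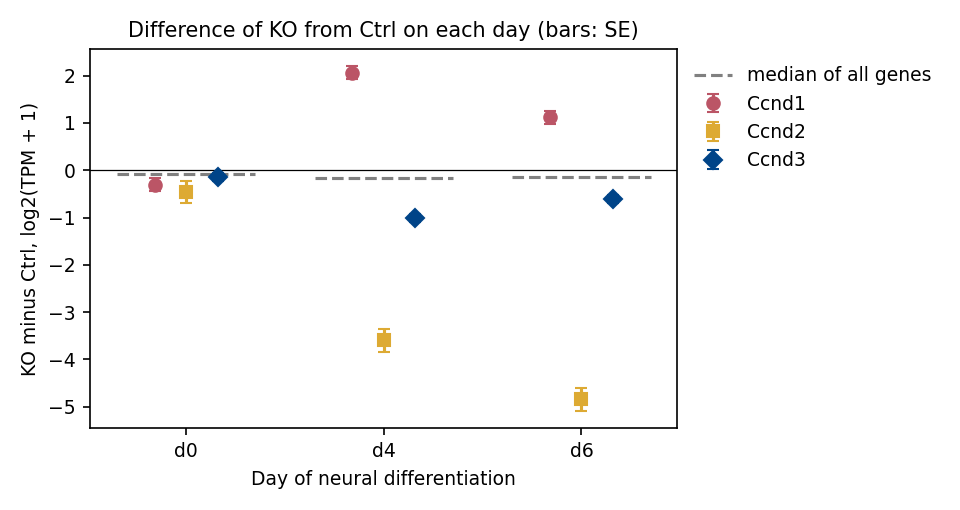
Difference of KO from Ctrl on log2(TPM + 1) (y axis) for each cyclin on d0, d4 and d6 (x axis), with bars for the standard error and a dashed line for the median of all genes. At d4 Ccnd1 stands at 2.06, Ccnd3 at -1.01 and Ccnd2 at -3.59.

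The sum of the family and the share of each member depend on the gene lengths, so both are given for the deposited TPM and for the recovered reads divided by the length of the main transcript and by the reads of the library on listed genes, as reads per kb and per 1e6 reads. In TPM the sum was 161 ± 9.15 in Ctrl and 138 ± 10.7 in KO at d0. At d4 the sums were 267 ± 39.2 and 251 ± 33.4 TPM and the libraries overlapped, with 235 to 311 TPM in Ctrl and 216 to 282 TPM in KO. At d6 the sum was 298 ± 10.7 TPM in Ctrl and 177 ± 14.5 TPM in KO, and the libraries did not overlap. With main transcript lengths the sum was 208 ± 10.1 in Ctrl and 191 ± 4.04 in KO at d0, with no overlap. At d4 it was 202 ± 12.6 in Ctrl and 127 ± 10.9 in KO, and at d6 196 ± 7.17 and 98.7 ± 2.48. On this scale the libraries did not overlap at d4 either, with 189 to 214 in Ctrl and 116 to 137 in KO, nor did they with merged exon lengths, so that the overlap in TPM rests on the lengths. KO was thus lower than Ctrl by the mean sum on each day with each of the 3 sets of lengths, by a ratio of 0.937 at d4 in TPM and of 0.630 with main transcripts.

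At d0 Ccnd1 made up 52.1 ± 3.25% of the sum in Ctrl and 49.3 ± 3.96% in KO in TPM, but 12.8 ± 1.45% and 11.6 ± 1.56% with main transcript lengths. Ccnd3 made up most of the rest, with 87.0 ± 1.48% in Ctrl and 88.3 ± 1.55% in KO with main transcript lengths, and had 3.23 to 4.92 reads per Ccnd1 read in the 6 libraries of that day. Ccnd2 made up less than 1% in every library at d0 with any of the lengths.

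At d4 Ccnd2 held 63.8 ± 5.09% of the sum in Ctrl and 5.27 ± 0.686% in KO in TPM, and 44.0 ± 7.15% and 5.86 ± 0.977% with main transcript lengths, where it came after Ccnd3 at 48.6 ± 7.30% in Ctrl. Ccnd1 held 19.1 ± 2.08% in Ctrl and 86.0 ± 0.273% in KO on that day in TPM, and 7.35 ± 0.745% and 53.7 ± 2.00% with main transcript lengths. At d6 Ccnd2 held 67.0 ± 1.19% in Ctrl in TPM and 55.6 ± 1.24% with main transcript lengths. Ccnd1 held 85.9 ± 2.18% in KO at d6 in TPM and 50.5 ± 3.74% with main transcript lengths, where Ccnd3 came close at 45.7 ± 3.66%. On both scales and on both later days, the share of Ccnd1 was higher and that of Ccnd2 lower in every KO library than in every Ctrl library.

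**Figure D3:**
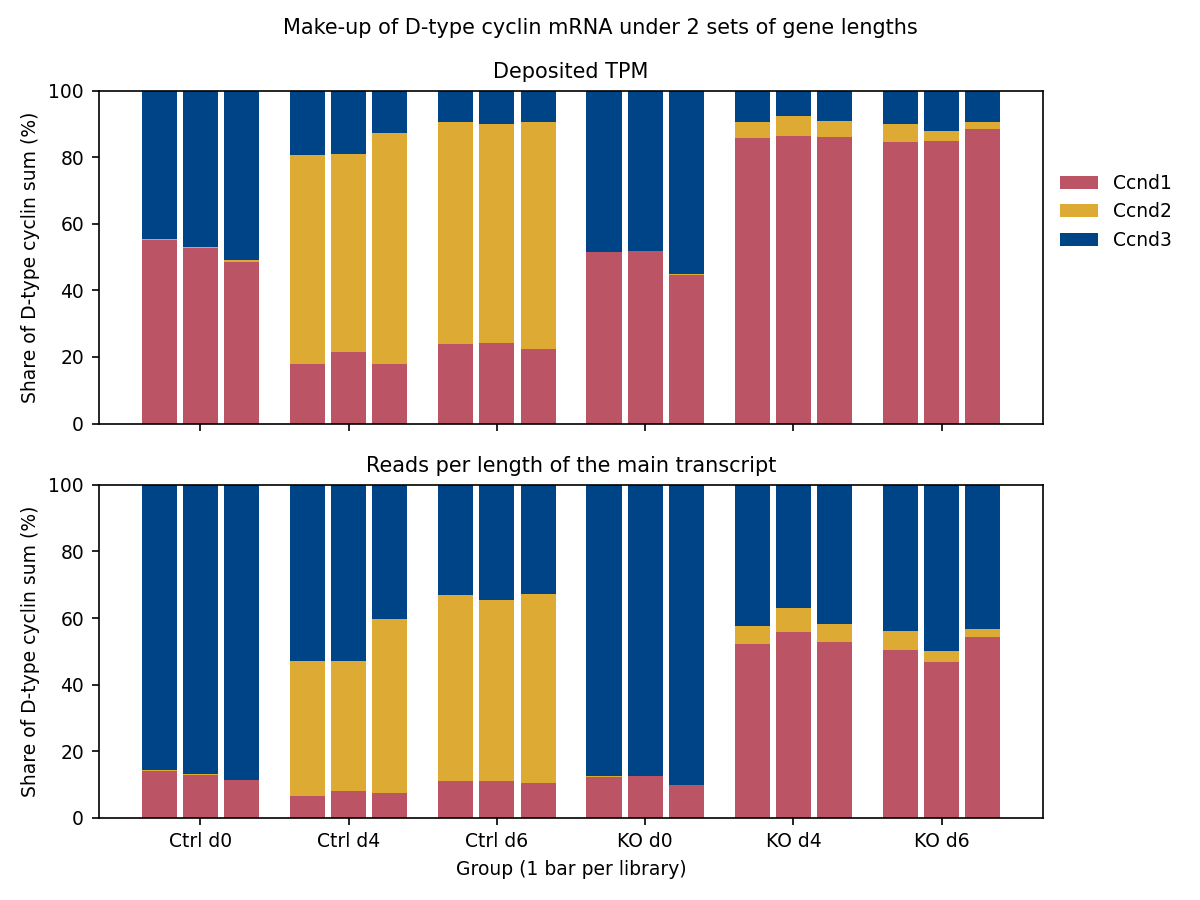
Share of each cyclin in the summed D-type cyclin level (y axis, %), 1 stacked bar per library in 6 groups (x axis), for the deposited TPM (top) and for reads divided by the length of the main transcript (bottom). At d4 and d6 Ccnd1 holds 84.6% to 88.4% of the sum in KO libraries in TPM and 46.9% to 55.9% with main transcripts, and in Ctrl Ccnd2 holds 59.4% to 69.4% and 39.1% to 56.8%.

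Genes of a chromosome region can differ together between cell lines, so the members were set beside their neighbours. Within 5 Mb of Ccnd2, 68 other genes had a median KO minus Ctrl difference of 0.12 on d0, -0.22 on d4 and -0.01 on d6, and each of the 68 was above Ccnd2 at d4 and at d6. Near Ccnd1 the median of 56 genes was -0.16, -0.07 and -0.03, and 54 of the 56 were below Ccnd1 at d4 and at d6. Near Ccnd3 the median of 70 genes was -0.14, -0.17 and -0.14, with 69 of them above Ccnd3 at d4 and 54 at d6. At d6, 16 of the 70 lay below Ccnd3, beside 22.3% of all genes, and at d0 Ccnd3 lay in the middle of its neighbours. The members were chosen with earlier results of these data known, so their places among neighbours are a description. Whether a regional difference had a part in them was not tested.

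Among the 8393 other genes with a mean of at least 10 TPM, those with the most similar log2(TPM + 1) over the 18 libraries were listed for each member by Pearson's r. These are descriptions over libraries that share days and genotypes. Ccnd2 was most like Mdk, which encodes the growth factor midkine (r = 0.989, Spearman's rho = 0.922), Homer3 (r = 0.987, rho = 0.969) and Zswim5 (r = 0.987, rho = 0.948). From d0 over d4 to d6, the means of Mdk were 301, 2726 and 3665 TPM in Ctrl and 284, 780 and 781 TPM in KO. Ccnd1 was most like Crip2 (r = 0.936, rho = 0.829), the kinase gene Mapkapk3 (r = 0.926, rho = 0.822) and Prrg4 (r = 0.921, rho = 0.915). Crip2 had a mean of 52.9 TPM in Ctrl and 95.3 TPM in KO at d6. Ccnd3 was most like its pseudogene Ccnd3-ps (r = 0.991, rho = 0.971), the transcription factor gene Elf3 (r = 0.984, rho = 0.955) and Rell1 (r = 0.984, rho = 0.926). Elf3 had 155 TPM in Ctrl and 156 TPM in KO at d0, 81.9 and 36.2 TPM at d4, and 57.6 and 27.2 TPM at d6.

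The genes around the D-type cyclins in the G1 phase were tested in the same limma fit, with adjustment over the whole table and a threshold of 0.01. These lists, too, were chosen with earlier results of these data known. Their counts and shares here and below, set beside those of all genes, are therefore a description and no independent test of the lists. Of 47 genes listed, 40 were measured. At d0, 12 of the 40 were lower in KO (30.0%, beside 16.4% of all genes) and 5 were higher (12.5%, beside 10.6%). At d4, 12 were lower (30.0%, beside 32.7%) and 7 higher (17.5%, beside 12.7%), and at d6, 19 were lower (47.5%, beside 34.3%) and 11 higher (27.5%, beside 17.9%). After median-ratio rescaling of the libraries the split at d4 was 8 lower and 9 higher. The median difference of the 40 genes was -0.08, -0.19 and -0.35 on the 3 days, beside -0.07, -0.16 and -0.14 for all genes. Of the calls, 10 of 17 at d0, 13 of 19 at d4 and 25 of 30 at d6 held in every setting tried, and the genes named with values below are among these unless it is said otherwise.

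Of the 2 kinases measured, Cdk4 is the partner of the D-type cyclins. It had 362 ± 12.6 TPM in Ctrl and 333 ± 7.22 TPM in KO at d0, and 390 ± 15.4 and 270 ± 11.7 TPM at d6, when it was lower in KO by a log2 difference of -0.53 (SE 0.045, adjusted p = 5.11e-08). Its differences of -0.12 at d0 and -0.09 at d4 did not pass. Cdk2, the partner of cyclins E and A, had a difference of -0.14 at d6 that did not pass and fell from d0 to d6 by 0.81 in Ctrl and by 1.02 in KO (adjusted p = 2.57e-10 and 1.67e-11). Cdk6 was not analysed here.

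Of the INK4 inhibitors, which bind CDK4 and CDK6, 3 of 4 were lower in KO at d4, beside 32.7% of all genes. Cdkn2a differed by -1.02 (adjusted p = 1.51e-06), Cdkn2c by -1.29 (adjusted p = 3.65e-05) and Cdkn2d by -0.68 (adjusted p = 2.72e-04). At d6 Cdkn2c (-1.17, adjusted p = 6.20e-05) and Cdkn2d (-0.79, adjusted p = 4.75e-05) were lower and Cdkn2b was higher (0.98, adjusted p = 8.85e-05). Cdkn2c was at low levels, with 6.76 ± 0.873 TPM in Ctrl and 2.21 ± 0.716 TPM in KO at d4.

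Of the CIP/KIP inhibitors, Cdkn1c, which encodes p57, was the one with the largest differences. It was lower in KO on every day, with -1.22 (SE 0.15, adjusted p = 9.41e-06) on d0, -1.44 (SE 0.15, adjusted p = 7.64e-07) on d4 and -2.00 (SE 0.15, adjusted p = 8.18e-09) on d6. Its mean went from 7.01 ± 1.07 TPM at d0 to 149 ± 7.84 TPM at d6 in Ctrl, and from 2.41 ± 0.186 to 37.1 ± 7.61 TPM in KO, a rise in both genotypes (4.24, adjusted p = 2.93e-13, and 3.46, adjusted p = 3.80e-12). Cdkn1b, which encodes p27, was higher in KO at d0 (0.48, adjusted p = 7.23e-06) and lower at d4 (-0.44, adjusted p = 8.24e-06). Cdkn1a, which encodes p21, was higher in KO at d4 (0.62, adjusted p = 5.47e-05), with 158 ± 13 TPM in Ctrl and 244 ± 4.25 TPM in KO.

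Of the pocket proteins, to which D-type cyclins bring their kinase, Rb1 was measured. It was lower in KO at d6 (-0.65, adjusted p = 1.05e-05), with 34.9 ± 2.75 TPM in Ctrl and 21.9 ± 2.60 TPM in KO. Of the 10 E2F and DP factors, which act after the pocket proteins, 7 were lower at d6 (beside 34.3% of all genes) and 1 was higher (beside 17.9%). E2f2 differed by -1.03 (adjusted p = 4.44e-07), E2f5 by -0.58 (adjusted p = 7.84e-05), E2f3 by -0.47 (adjusted p = 1.20e-04) and the partner gene Tfdp2 by -0.62 (adjusted p = 2.04e-05), and E2f4 was higher (0.36, adjusted p = 1.43e-04). The calls of E2f6, E2f8 and Tfdp1 at d6 were lost after median-ratio rescaling and with voom. That of E2f6 was also lost without KO d6 replicate 1, and that of E2f8 after quantile normalization and in a fit to d6 alone. Ccne1, the cyclin that follows the D-type cyclins in the G1 phase, was lower in KO at d0 (-0.25, adjusted p = 0.00155) and higher at d4 (0.48, adjusted p = 2.23e-06) and on d6 (0.41, adjusted p = 6.38e-06).

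Of the genes that act on the turnover of D-type cyclins, 3 of 6 were measured. All 3 were lower in KO at d6, as were 34.3% of all genes. Gsk3b, a kinase that marks cyclin D1 for removal, differed by -0.68 (adjusted p = 2.98e-07) on d4 and -0.78 (adjusted p = 2.66e-08) on d6. Its level in KO was 41.1 ± 2.10 TPM at d6 against 71.5 ± 2.43 TPM in Ctrl. The ubiquitin ligase subunits Skp2 and Cul1 differed by -0.63 (adjusted p = 1.14e-05) and -0.52 (adjusted p = 3.73e-06) at d6. Levels of cyclin D protein were not measured in these libraries.

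**Figure D4:**
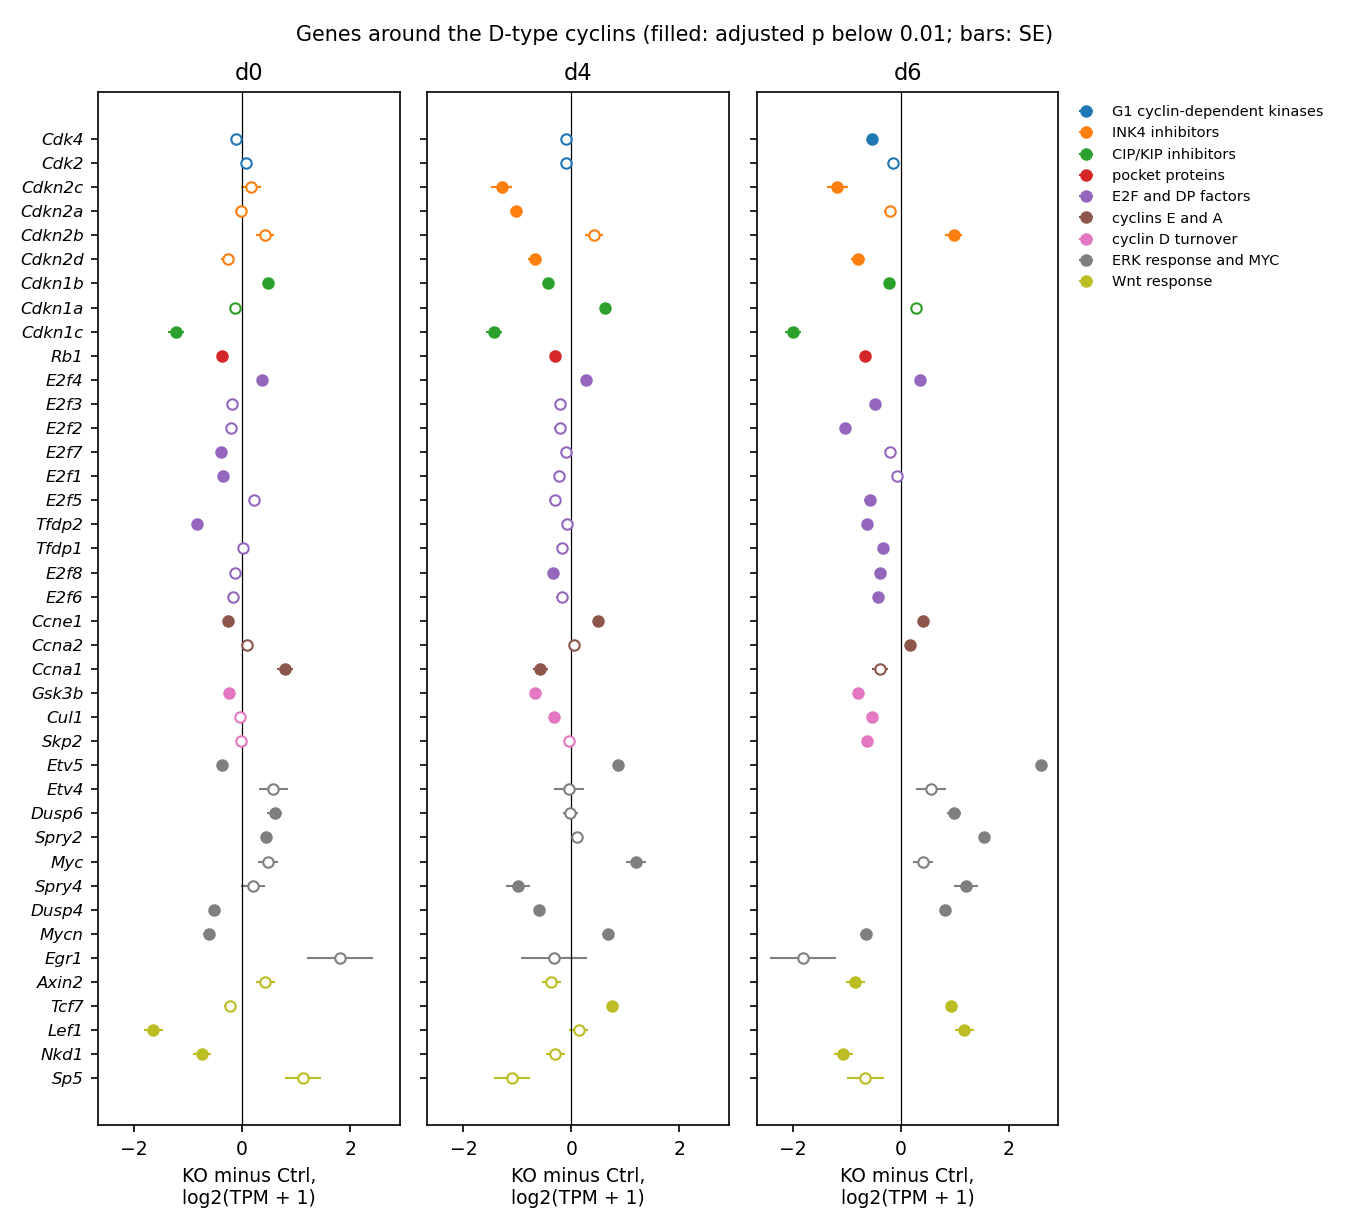
KO minus Ctrl on log2(TPM + 1) (x axis) of the 40 measured pathway genes (y axis, coloured by list) at d0, d4 and d6, with filled points for an adjusted p below 0.01 and bars for the standard error. Etv5 at 2.61 is farthest to the right at d6 and Cdkn1c at -2.00 farthest to the left.

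A further list held genes known to report on ERK signalling, and the Myc genes. At d0, with the MEK inhibitor present, Etv5 had a mean of 131 TPM in Ctrl and 101 TPM in KO, and Dusp6 14.4 and 22.6 TPM. In Ctrl at d6 their means were 22.2 and 146 TPM. From d0 to d6 in Ctrl, 3 of the 9 genes fell and 5 rose (beside 25.8% and 45.8% of all genes). Whether the list followed ERK activity in these cultures, or whether any of its genes acted on Ccnd1, was not tested. Of the 9 genes of this list, 5 were higher in KO at d6 (beside 17.9% of all genes) and 1 was lower (beside 34.3%). Etv5 had 22.5, 22.3 and 21.9 TPM in the Ctrl libraries and 136, 134 and 151 TPM in the KO libraries at d6, a log2 difference of 2.61 (SE 0.064, adjusted p = 1.97e-14). Spry2 (1.55, adjusted p = 6.61e-10), Dusp6 (0.99, adjusted p = 1.14e-05), Spry4 (1.22, adjusted p = 1.70e-04) and Dusp4 (0.83, adjusted p = 7.14e-08) were the others. At d4, when Ccnd1 differed most, the same list was mixed: Etv5 (0.86, adjusted p = 2.49e-08), Myc (1.20, adjusted p = 5.58e-05) and Mycn (0.67, adjusted p = 9.70e-05) were higher, Dusp4 was lower (-0.60, adjusted p = 4.70e-06), and Spry4 was lower (adjusted p = 0.00122) in a call that a pseudocount of 0.1 and quantile normalization removed. Mycn was lower at d6 (-0.65, adjusted p = 1.01e-04).

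Of the 5 Wnt response genes, Tcf7 was higher in KO both on d4 (0.75, adjusted p = 1.16e-05) and on d6 (0.94, adjusted p = 6.14e-07). Lef1 was lower at d0 (-1.65, adjusted p = 2.65e-06) and higher at d6 (1.18, adjusted p = 1.90e-05), with 4.31 ± 0.631 TPM in Ctrl and 11.2 ± 3.14 TPM in KO. Axin2 (-0.84, adjusted p = 6.09e-04) and Nkd1 (-1.06, adjusted p = 5.67e-05) were lower at d6, so that the members did not move one way.

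Over the course from d0 to d6, 10 of the 40 genes fell in Ctrl (25%, beside 25.8% of all genes) and 17 rose (42.5%, beside 45.8%). In KO, 15 fell (37.5%, beside 27.4%) and 16 rose (40.0%, beside 40.3%). In Ctrl the split was 15 and 15 after median-ratio rescaling, 13 and 14 after quantile normalization, and 16 and 15 with voom. The course since d0 differed between the genotypes for 25 of the 40 genes by a moderated F test (62.5%, beside 48.7% of all genes). Cell type markers, summed as deposited TPM, lay apart between the genotypes for some lists and overlapped for others. At d4 the measured mesoderm markers, 3 of 6, summed to 190 to 232 TPM in Ctrl and 3.61 to 5.06 TPM in KO, nearly all of it in Ctrl from Meox1 at 208 TPM. In KO Meox1 was at 0.917 TPM and most of the sum came from Eomes at 3.27 TPM. At d6 the measured endoderm markers, 5 of 7, summed to 81.5 to 123 TPM in Ctrl and 15.9 to 22.7 TPM in KO, and the trophectoderm markers, 3 of 5, to 1029 to 1601 and 1028 to 2031 TPM. Most of the trophectoderm sum was keratin mRNA, with Krt18 at 961 TPM in Ctrl and 1373 TPM in KO and Krt8 at 301 and 298 TPM. Tfap2c went the other way, from 82.1 TPM at d0 to 16.9 TPM at d6 in Ctrl and from 50.9 to 9.09 TPM in KO. The fibroblast markers, 3 of 5, summed to 26.3 to 32.7 TPM in Ctrl and 32.7 to 44.8 TPM in KO at d6. Of these, Thy1 had a mean of 5.19 TPM in Ctrl and 32.8 TPM in KO, whereas Col1a1 with 15.6 and 3.55 TPM and Col1a2 with 7.72 and 1.60 TPM were lower in KO. The part of such cells in the values of the D-type cyclins was not tested.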

How the data were processed

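Per the labels and the study's methods, the authors mapped the reads to GRCm38 with TopHat2 2.0.13, counted them with featureCounts 1.4.6, converted them to TPM and kept genes with at least 5 TPM in at least 3 samples, without short noncoding genes and the 20% least variable. DESeq2 was used for the authors' own tests. The deposited table gives TPM for 11046 entries, and the first entry of each of 10965 genes was kept. Its 3 score columns, deposited by the authors as variability over all libraries, were not used. The methods give other doses of the d0 inhibitors than the labels. Reads were recovered as whole multiples (within 1e-06) after 1 read that each gene carries was subtracted, and reads per TPM gave the length that the authors used for each gene, which the sources used here do not define.

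The fit used limma 3.58.1 (R 4.3.3), with an intensity trend, 6 group means and 18 libraries, on log2(TPM + 1), a scale that understates changes of low genes. P-values were adjusted by Benjamini-Hochberg over the whole table, with a threshold of 0.01. The steps were tested on simulated data. Members and lists were chosen with earlier results of these data known. The genes named are the members, Zeb2, called pathway genes and the 3 genes most like each member. The marker lists (pluripotency, neural, endoderm, mesoderm, trophectoderm, fibroblast) are given as sums. Oraov1, Bysl, Gm43126, the single pluripotency markers, Tubb3, Nes, Sox1, Meox1, Eomes, Krt8, Krt18, Tfap2c, Thy1, Col1a1 and Col1a2 were named after their values were seen. Positions came from GENCODE M21 for 10922 genes. Residues were aligned with Biopython 1.88 from translated transcripts, and figures drawn with matplotlib 3.10.9. Alternatives were 2 pseudocounts, 2 scalings, a minimum mean TPM, eBayes without trend, a fit to 1 day, voom, a replicate block and leaving out each library. Main transcript and merged exon lengths for the family's sum and shares were added after seeing the data.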

Additional observations from a re-analysis of the deposited data

Results flagged for a closer look

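KO minus Ctrl for Ccnd1 on log2(TPM + 1) was negative on d0 (-0.31) and positive on d4 (2.06) and d6 (1.11). Its KO and Ctrl libraries were apart on each day. Day by day, 51.5%, 65.7% and 63.7% of the 10965 genes showed such a gap as well. The d0 difference was small, with only 74.5 TPM in KO against 77.9 TPM in Ctrl between the nearest libraries. Less the all-gene median it was -0.24, and 23.1% of genes lay lower. The change of Ccnd1 from d0 to d4 was -0.72 in Ctrl and 1.65 in KO. From d4 to d6 it was 0.45 in Ctrl and -0.49 in KO. These differences between days and genotypes were not tested, since the gene was proposed from these data.

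Among the genes around the D-type cyclins, Etv5 fell from d0 to d6 in Ctrl (-2.51 on the log2 scale) and rose by 0.47 in KO, and the difference of these changes was 2.98 (SE 0.091, adjusted p = 8.67e-13 in limma). Spry2 changed by -0.66 in Ctrl, a fall, and rose by 0.45 in KO, a difference of 1.11 (SE 0.13, adjusted p = 3.10e-06 in limma). The rise of Spry2 in KO was not called after median-ratio rescaling (adjusted p = 0.0116). Both changes start from d0, when both genotypes grew with the MEK inhibitor PD0325901.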

How the results depend on the processing

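The differences of the D-type cyclins between KO and Ctrl kept their sign in each alternative tried. For Ccnd1 at d6 the value was 1.28 after median-ratio rescaling and 1.29 with voom. Ccnd2 at d0 was -1.29 with a pseudocount of 0.1, -0.12 with a pseudocount of 5 and -1.72 with voom, and with a pseudocount of 5 it was -3.26 at d4 and -4.20 at d6. Ccnd3 at d4 was -0.84 after median-ratio rescaling, -0.81 after quantile normalization and -0.87 with voom. At d6 it was -0.52 with a pseudocount of 5, -0.45 after median-ratio rescaling, -0.39 after quantile normalization and -0.48 with voom. A fit to d0 alone, with fewer libraries, called 7 pathway genes lower and 3 higher, and voom called 16 lower from d0 to d6 in Ctrl. The rescalings took the all-gene median from -0.16 at d4 to 0.00, and the cause of the other shifts was not tested. Same-numbered libraries were not taken as pairs in the main fit, although most pairs of replicates 1 and 2 correlated over 0.1. The deviations of same-numbered libraries correlated at -0.0926 to 0.336 (median 0.15), over 0.1 in 29 of 45 pairs. By number these were 13 of 15 for replicate 1, 15 of 15 for replicate 2 and 1 of 15 for replicate 3. What such libraries shared was not tested. A replicate block gave 11 lower and 6 higher pathway genes at d0 and 24 with a different course. Gene lengths, an alternative chosen after seeing the data, took the KO per Ctrl ratio of the family's sum at d4 from 0.937 in TPM to 0.630 with main transcripts and 0.755 with merged exons. Few Ccnd2 and Zeb2 reads at d0 limit what can be read from that day.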
